A study of Mus musculus with 9 samples.

Results

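Interferon-stimulated genes are the genes that a cell switches on after it senses an interferon, and a set of 36 of them was followed here across 3 groups of mouse coronal suture. The members are a list of gene symbols, and every one was found by its symbol among the 43644 genes of the deposited gene table. The study sequenced RNA from the coronal suture, the seam of fibrous tissue where frontal bone meets parietal bone, of C57BL/6 mice aged 7 months. REG mice were Twist1+/- and had suture regeneration surgery at 1 month of age. MUT mice were Twist1+/- without surgery, and WT mice were wild type without surgery. Each group had 3 libraries, and the labels do not say whether these came from separate animals, so p-values measure only the spread between these libraries. The design text also speaks of a time after an induction, and the protocol of 3 pairs of samples, and the labels explain neither. Twist1 encodes a transcription factor of the cranial mesenchyme, and loss of 1 copy is a known cause of early fusion of this suture.

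Interferons are secreted proteins that bind paired receptors and, through JAK kinases and STAT proteins, switch on genes with an antiviral role. Type I interferons mainly act through a protein complex that binds the interferon-stimulated response element (ISRE), while interferon gamma mainly acts at gamma-activated sites (GAS). Many of these genes are also transcribed at a low level without infection, and macrophages and other immune cells are among the cells that respond.

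The libraries differed in depth and quality along with the groups. Depth, as estimated reads, was 18276494 to 39377876 in REG, only 2945636 to 10894209 in MUT, and 16356391 to 20019712 in WT. Background was taken as the read density over 1747 olfactory and vomeronasal receptor genes, which suture is not known to use. It came to between 0.509% and 0.849% of reads in REG, between 7.86% and 23.2% in MUT, and between 0.614% and 0.866% in WT. Twist1 itself was at 3.76, 9.19 and 12.2 in REG, 0.987, 8.08 and 0.548 in MUT, and 16.2, 23.3 and 23.1 in WT, in the deposited scaled counts. It fell in MUT relative to WT by 3.26 on the log2 scale (limma, adjusted p = 0.0109), with MUT replicate 2 far above the other MUT libraries. Of 10 markers of suture mesenchyme and bone, 9 fell in MUT relative to WT (7 with quantile or total scaling, and 4 with that background subtracted and reads scaled to the library total, RPM), and their summed value was 12587 to 33529 in REG, 1331 to 14326 in MUT, with replicate 2 the highest, and 24930 to 44869 in WT. In RPM the sum of MUT replicate 2, at 48723, stood above REG replicates 1 and 2, at 34310 and 37528. In whole tissue, fewer cells of a type and less RNA per cell cannot be told apart.

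The core of the ISRE was found in most of the member promoters that could be searched. RefSeq promoter windows (GRCm38.p6, 250 bases before to 50 bases after the start, on the gene's strand) were found for 27 of the 36 members, the others being Dhx58, Zbp1, Oas2, Mx1, Mx2, Usp18, Ifi27, Rtp4 and Parp14. The ISRE core, searched on both strands as GAAA, any 2 bases and GAAA again, was present in 17 of these 27 (63.0%), against 3.99% of all 27018 genes with such a window. The GAS core, searched as TTC, any 3 bases and GAA, a palindrome that reads the same on both strands, was present in 8 of 27 members (29.6%) and in 9.55% of all genes. A match describes the letters only and is not a measured binding site. The 6 promoters below are those with an ISRE core whose genes had the smallest p in any comparison of the groups, and their cores are in capitals (an antisense core reads TTTC, 2 bases, TTTC).
Gbp3: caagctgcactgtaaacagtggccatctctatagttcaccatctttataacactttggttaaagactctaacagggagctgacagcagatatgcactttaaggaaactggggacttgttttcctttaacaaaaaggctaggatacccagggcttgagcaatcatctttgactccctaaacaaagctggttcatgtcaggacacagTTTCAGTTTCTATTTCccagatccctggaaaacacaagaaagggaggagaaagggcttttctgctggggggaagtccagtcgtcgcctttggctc
Gbp2: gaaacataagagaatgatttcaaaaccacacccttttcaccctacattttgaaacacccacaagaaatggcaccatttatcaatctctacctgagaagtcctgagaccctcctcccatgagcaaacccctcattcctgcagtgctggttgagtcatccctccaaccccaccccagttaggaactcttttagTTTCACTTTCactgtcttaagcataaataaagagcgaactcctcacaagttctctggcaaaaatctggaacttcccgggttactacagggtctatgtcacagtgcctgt
Isg15: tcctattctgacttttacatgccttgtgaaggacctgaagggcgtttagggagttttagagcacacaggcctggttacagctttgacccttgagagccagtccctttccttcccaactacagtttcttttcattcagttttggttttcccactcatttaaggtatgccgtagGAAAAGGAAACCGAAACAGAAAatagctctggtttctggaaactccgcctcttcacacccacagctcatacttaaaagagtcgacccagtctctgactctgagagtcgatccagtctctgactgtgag
Ifih1: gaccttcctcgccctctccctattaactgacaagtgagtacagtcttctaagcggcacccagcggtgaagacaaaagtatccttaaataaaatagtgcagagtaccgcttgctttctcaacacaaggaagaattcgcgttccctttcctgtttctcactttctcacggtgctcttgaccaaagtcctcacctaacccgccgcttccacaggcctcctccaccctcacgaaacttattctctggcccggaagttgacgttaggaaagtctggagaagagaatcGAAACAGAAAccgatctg
Igtp: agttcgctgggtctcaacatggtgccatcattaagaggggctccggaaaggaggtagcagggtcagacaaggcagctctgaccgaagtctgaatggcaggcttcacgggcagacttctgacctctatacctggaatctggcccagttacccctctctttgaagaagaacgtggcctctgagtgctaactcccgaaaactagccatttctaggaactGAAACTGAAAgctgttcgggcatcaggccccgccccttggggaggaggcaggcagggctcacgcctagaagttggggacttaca
Ifit3: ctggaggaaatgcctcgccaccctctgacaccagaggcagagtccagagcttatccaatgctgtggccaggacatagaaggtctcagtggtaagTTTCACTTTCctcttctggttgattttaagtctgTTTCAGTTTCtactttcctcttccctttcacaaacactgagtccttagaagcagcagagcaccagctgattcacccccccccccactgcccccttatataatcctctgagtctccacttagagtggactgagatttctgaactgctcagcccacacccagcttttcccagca

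The cores lie close to the start in most of these windows. Gbp3 (chr3:142559794-142560093, plus strand) holds overlapping antisense cores that begin 45 and 39 bases before the start, and Gbp2 (chr3:142620413-142620712, plus strand) holds 1 that begins 59 bases before it. Isg15 (chr4:156200769-156201068, minus strand) holds a run of 3 overlapping sense cores, the first of which begins 78 bases before the start. Ifih1 (chr2:62646206-62646505, minus strand) has its core after the start, from base 33. Igtp (chr11:58199306-58199605, plus strand) has 1 that begins 34 bases before the start, and Ifit3 (chr19:34583279-34583578, plus strand) has antisense cores that begin 156 and 122 bases before it.

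The members were moderately expressed in WT suture. All 36 reached the minimum of 0.367 scaled counts in at least 3 libraries and were tested, among 29113 genes in all, and 27 reached it in all 9 libraries. Their median level in WT was 0.994 scaled counts per kb of exon, against 0.827 for all protein-coding genes tested. Levels per kb in WT were highest for Ifi27 (3.93), which encodes a small hydrophobic membrane protein, and for Parp14 (2.95), which encodes an ADP-ribosyltransferase. The lowest were Ifi44 (0.102) and the dynamin-like GTPase gene Mx1 (0.222). The GENCODE annotation lists Mx1 and Mx2 as polymorphic pseudogenes, and many laboratory strains carry disrupted copies of both.

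**Figure D1:**
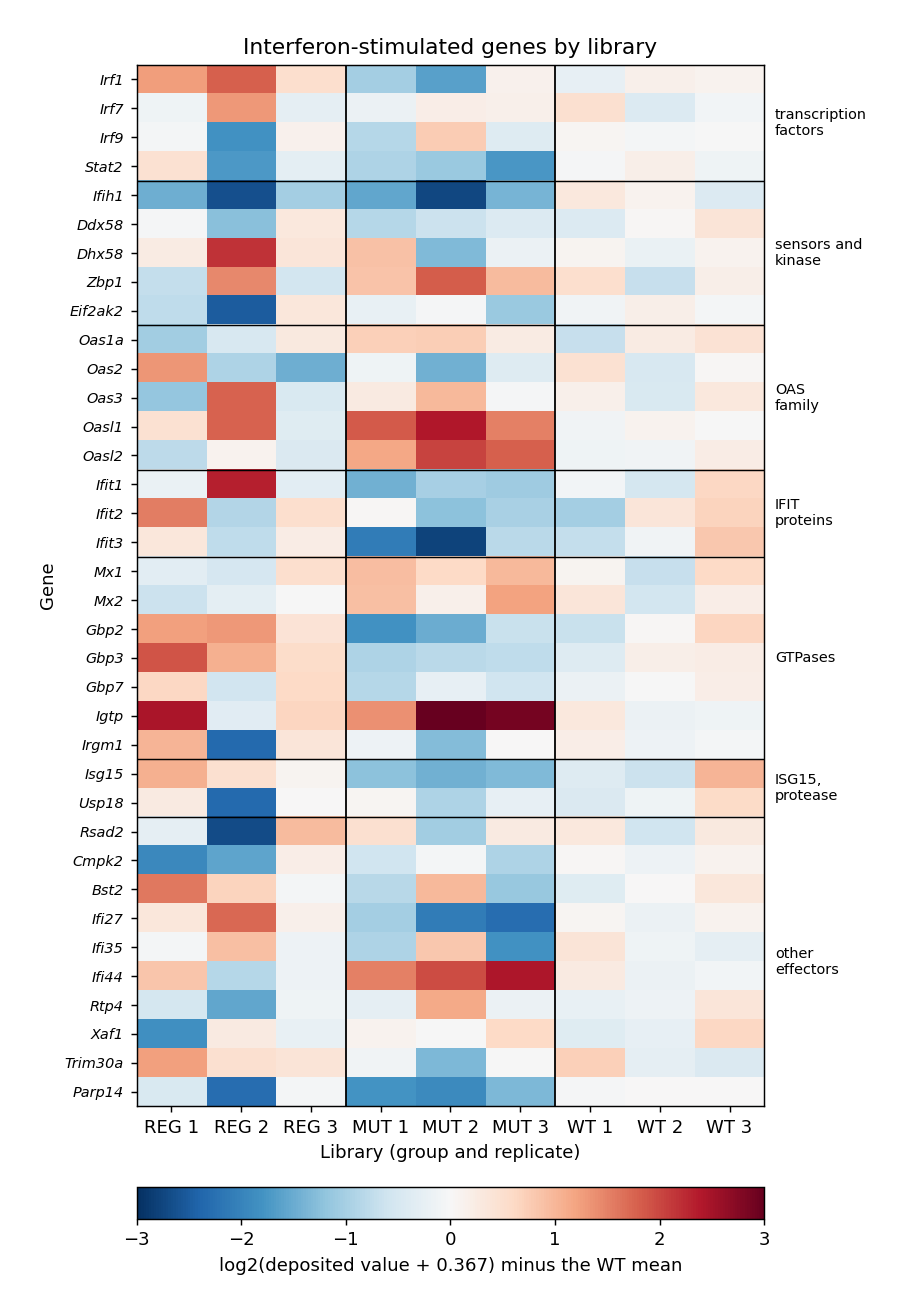
Each row is 1 of the 36 interferon-stimulated genes, grouped by role, and each column 1 library of REG, MUT or WT. Colour is log2(deposited value + 0.367) minus the gene's WT mean, with colours saturated at 3 in either direction. In most roles the genes do not share 1 colour within MUT or within REG. The fitted MUT vs WT changes were all negative for the IFIT genes and for Isg15 and Usp18. REG replicate 2 departs from the other REG libraries in many rows.

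In MUT sutures relative to WT, the set split. Oasl1, Oasl2, Igtp and Ifi44 rose, Ifih1, Ifit3, Ifi27 and Parp14 fell, and the other 28 members did not pass the test (limma, all 9 libraries in 1 fit, adjusted p under 0.05). In all, 8 of 36 members were called, where 35.1% of all genes tested were. The 4 higher members stand beside a background of 20.5% of genes called higher, and the 4 lower members beside 14.6% called lower. The median log2 change over the members was -0.47 (24 of 36 below 0), against 0.18 over all genes tested. At an FDR under 0.05 in the authors' deposited table, the same 4 members were higher (14.4% of all genes) and 5 were lower (12.3% of all genes), Isg15 being the additional gene. The MUT and WT libraries did not overlap for 5 members that were higher in MUT (32.6% of all genes) and for 9 that were lower (25.9% of all genes).

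The oligoadenylate synthetase family, whose enzymes make the second messenger that activates RNase L, held 2 of the risers. Oasl2, a mouse relative that retains synthetase activity, was at 2.52, 4.95 and 3.30 scaled counts in REG, 10.7, 19.8 and 16.7 in MUT, and 4.19, 4.27 and 5.40 in WT. All MUT libraries were above all others, by 1.65 on the log2 scale over WT (SE 0.37, limma adjusted p = 0.00969). Of the libraries left out in turn, leaving out MUT replicate 3 alone ended this call (1.59, adjusted p = 0.0566). Oasl1, which in mouse restrains translation of Irf7 mRNA, was at 1.12, 3.32 and 0.464 in REG, 3.45, 5.29 and 2.68 in MUT, and 0.634, 0.791 and 0.703 in WT. It rose in MUT over WT by 1.91 (SE 0.52, adjusted p = 0.0192), and REG replicate 2 lay inside the MUT range. The call of Oasl1 was lost without MUT replicate 1 or 2 and without any 1 of the WT libraries, with log2 changes of 1.67 to 1.96 (adjusted p from 0.0586 to 0.0637). The synthetases proper did not pass the test in MUT against WT, with log2 changes of 0.57 for Oas1a, -0.65 for Oas2 and 0.40 for Oas3. Oas1a shares 68.7% of its 31-base words with Oas1g, so reads could be split between them.

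Igtp, an immunity-related GTPase that acts at the vacuoles of intracellular parasites, showed the largest log2 change of the members in MUT over WT. Its values were 16.3, 2.07 and 4.41 in REG, 7.57, 33.6 and 22.2 in MUT, and 3.47, 2.34 and 2.42 in WT, a rise of 2.57 in MUT over WT (SE 0.72, limma adjusted p = 0.0212). REG replicate 1 lay inside the MUT range, so the rise separates MUT from WT and not from every REG library. Igtp overlaps its neighbour Irgm2 over 162 exon bases on the same strand, and Irgm2 fell in MUT relative to WT by 1.44 (adjusted p = 0.0341). With the pair summed, an alternative chosen after seeing the data, the rise was 1.56 (adjusted p = 0.0360). The call of Igtp alone was lost without MUT replicate 2 or 3 or WT replicate 2 or 3, at 2.12 to 2.50 (adjusted p from 0.0672 to 0.0739). The other GTPases did not pass the test in MUT against WT: Mx1 was at 0.83 and Mx2 at 0.76 on the log2 scale, Irgm1 at -0.47, Gbp7 at -0.57, Gbp3 at -0.84 and Gbp2 at -1.33 (adjusted p = 0.0510).

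Ifi44, a cytoplasmic protein of little-known biochemical function, had the lowest level per kb of the members in WT. It was at 1.38, 0.180 and 0.516 in REG, 2.44, 3.42 and 4.95 in MUT, and 0.818, 0.502 and 0.554 in WT. All MUT libraries stood above all others, and the rise over WT was 1.97 (SE 0.46, limma adjusted p = 0.0112). It missed the threshold without MUT replicate 3 (1.73, adjusted p = 0.0602) and without WT replicate 2 (1.88, adjusted p = 0.0510).

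Ifih1, which encodes MDA5, a cytoplasmic sensor of long double-stranded RNA, was lower in both Twist1+/- groups. It was at 5.45, 2.21 and 7.47 in REG, 5.10, 2.05 and 5.69 in MUT, and 19.6, 16.7 and 11.6 in WT. It fell in MUT relative to WT by 1.89 (SE 0.51, limma adjusted p = 0.0194), a call lost without MUT replicate 2 or WT replicate 1 or 2 (-1.84 to -1.47, adjusted p from 0.0664 to 0.0695). Every REG library was also below every WT library, but the difference of -1.71 did not pass the test (adjusted p = 0.499). The other sensors did not pass in MUT against WT: Ddx58, which encodes RIG-I, was at -0.64 on the log2 scale, its relative Dhx58 at -0.21, the Z-nucleic acid sensor Zbp1 at 1.21 and the kinase gene Eif2ak2 (PKR) at -0.46.

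Among the effectors, Parp14 was at 19.8, 5.33 and 26.2 in REG, 7.64, 7.03 and 10.6 in MUT, and 26.6, 27.8 and 27.9 in WT. It fell in MUT relative to WT by 1.68 (SE 0.53, limma adjusted p = 0.0338), with REG replicate 2 as low as the MUT libraries. Ifi27 was at 7.41, 19.7 and 6.40 in REG, 2.63, 1.07 and 0.896 in MUT, and 5.98, 5.09 and 6.23 in WT. All MUT libraries were below all others, and the fall relative to WT was 1.80 (SE 0.49, adjusted p = 0.0201). Leaving out any 1 MUT or WT library ended the call of Parp14 (-1.85 to -1.57, adjusted p from 0.0718 to 0.107). For Ifi27 the call was lost without MUT replicate 2 or 3 or any 1 of the WT libraries (-1.88 to -1.56, adjusted p from 0.0589 to 0.0945).

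Ifit3, whose human counterpart stabilises IFIT1 on viral RNA, was at 4.60, 1.97 and 4.23 in REG, 0.555, 0.209 and 1.87 in MUT, and 2.04, 3.28 and 6.57 in WT. Its fall in MUT relative to WT was 1.89 (SE 0.58, limma adjusted p = 0.0309), but its near copy Ifit3b went the other way. Ifit3 shares 61.8% of its 31-base words with Ifit3b, which rose in MUT over WT by 1.77 (adjusted p = 0.0168). The sum of the pair, chosen after seeing the data, was 7.49, 8.14 and 6.47 in REG, 6.72, 10.8 and 9.95 in MUT, and 4.06, 4.57 and 10.04 in WT. For that sum the log2 change in MUT over WT had the other sign, 0.61 (adjusted p = 0.259). A sum of genes with opposite changes cannot show how reads were assigned between them, and that was not tested. The direction of Ifit3 alone is left uncertain. Its call was also lost without MUT replicate 1 or 2 or WT replicate 2 or 3 (-1.95 to -1.46, adjusted p from 0.0829 to 0.120).

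**Figure D2:**
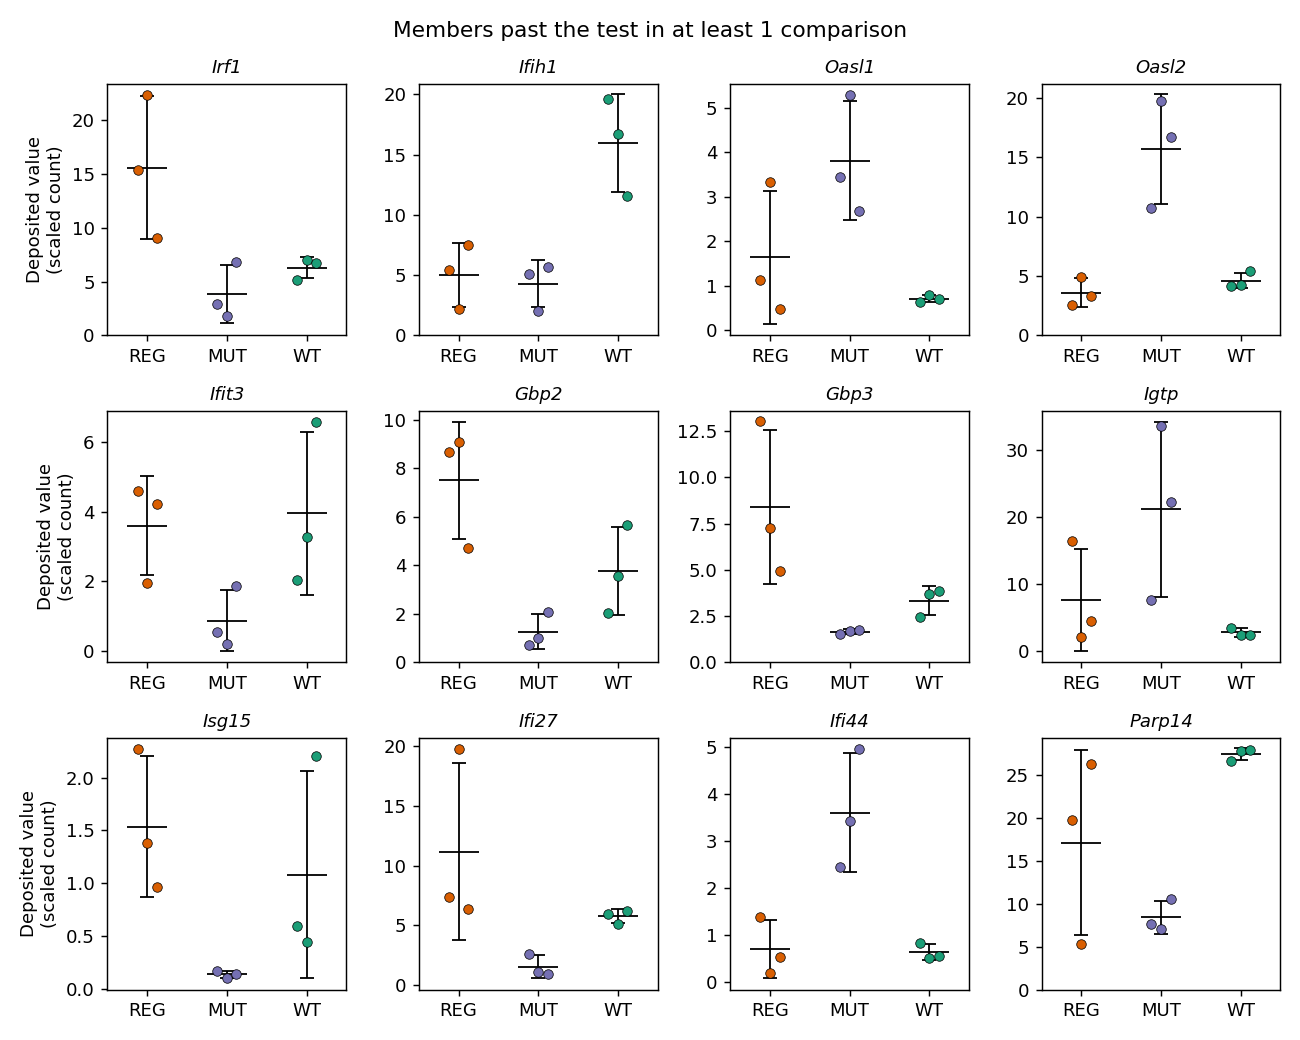
Deposited values (scaled counts, linear axes) of the 12 members past the test in at least 1 comparison. Points are the 3 libraries of REG, MUT and WT, horizontal bars the group means and error bars the SD (n = 3). Oasl2 and Ifi44 sit highest in MUT, Ifi27, Gbp3 and Isg15 lowest in MUT, and Ifih1 is low in both REG and MUT.

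In REG sutures relative to MUT, Irf1, Gbp2, Gbp3, Isg15, Ifi27 and Ifit3 rose, and Oasl2 and Ifi44 fell. These are 8 of 36 members, where 36.6% of all genes tested were called. The 6 higher members stand beside 11.8% of genes called higher, and the 2 lower members beside 24.8% called lower. The median log2 change was 0.22 over the members and -0.36 over all genes tested. At an FDR under 0.05 the authors' deposited table had the same 6 and Ifit1 higher, 7 members where 11.5% of all genes were, and the same 2 lower (24.7% of all genes). The REG and MUT libraries did not overlap for 8 members that were higher in REG (14.0% of all genes) and for 4 that were lower (28.5% of all genes). This comparison and that of MUT with WT share the MUT libraries, so a low or high MUT value moves both.

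Irf1, a transcription factor strongly induced by interferon gamma, was at 15.3, 22.3 and 9.05 in REG, 2.91, 1.77 and 6.85 in MUT, and 5.18, 6.98 and 6.71 in WT. Every REG library was above every other library, and the rise over MUT was 2.02 (SE 0.50, limma adjusted p = 0.0126), a call lost without MUT replicate 1 (1.93, adjusted p = 0.0576). The REG difference from WT was 1.18 and did not pass (adjusted p = 0.514). The other factors of the response did not pass against MUT: Irf7, which drives type I interferon genes, was at 0.25 on the log2 scale and Irf9 at -0.43. Stat2, the highest of these factors in WT per kb, was at 15.1, 3.03 and 8.82 in REG, 5.52, 4.81 and 3.00 in MUT, and 10.5, 12.4 and 9.83 in WT. MUT lay below WT throughout for Stat2, at -1.26 (adjusted p = 0.0854), and REG replicate 2 was level with MUT.

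The guanylate-binding proteins are large GTPases, also strongly induced by interferon gamma, that coat intracellular pathogens. Gbp2 was at 8.66, 9.08 and 4.73 in REG, 0.729, 1.00 and 2.08 in MUT, and 2.06, 3.58 and 5.65 in WT, a rise of 2.30 in REG over MUT (SE 0.47, limma adjusted p = 0.00609). Gbp3 was at 13.01, 7.26 and 4.93 in REG, 1.53, 1.72 and 1.76 in MUT, and 2.43, 3.70 and 3.84 in WT, a rise of 2.00 in REG over MUT (SE 0.40, adjusted p = 0.00554). The 3 groups of Gbp3 did not overlap, and REG exceeded WT by 1.16 without passing the test (adjusted p = 0.506). Gbp7 was at 0.78 in REG over MUT and did not pass.

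Isg15, the ubiquitin-like protein that is linked to other proteins in the interferon response, was at 2.27, 1.38 and 0.961 in REG, 0.171, 0.0998 and 0.138 in MUT, and 0.592, 0.446 and 2.21 in WT. It rose in REG over MUT by 1.86 (SE 0.47, limma adjusted p = 0.0139), a call lost without MUT replicate 1 (1.91, adjusted p = 0.0531) or MUT replicate 3 (1.87, adjusted p = 0.0579). The MUT values stand for 10, 0 and 6 estimated reads, fewer in sum than the local background, so the MUT level was not distinguishable from none. Usp18, the protease that removes ISG15, was at -0.31 in REG over MUT and did not pass.

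The other calls in REG against MUT were of members also called in MUT against WT. Ifi27 rose in REG over MUT by 2.53 (SE 0.49, limma adjusted p = 0.00508), with REG replicate 2 the highest library. Oasl2 fell in REG relative to MUT by 2.03 (SE 0.37, adjusted p = 0.00430), and Ifi44 fell by 2.02 (SE 0.46, adjusted p = 0.00921), though not without MUT replicate 3 (-1.79, adjusted p = 0.0558). The REG against MUT calls of Oasl2, Ifi27, Gbp2 and Gbp3 held with each library left out in turn. Oasl1 and Igtp were lower in REG by the fit, at -1.28 and -1.66, and did not pass (adjusted p = 0.0770 and 0.0956). Ifit3 rose in REG over MUT by 1.83 (adjusted p = 0.0336), and summed with Ifit3b it was at -0.28 (adjusted p = 0.622). The call of Ifit3 alone was lost without MUT replicate 1 or 2, REG replicate 1 or 3 or WT replicate 2 (1.39 to 1.83, adjusted p from 0.0531 to 0.115). Of its family, Ifit1, which binds viral RNA lacking cap methylation, was at 1.77 (adjusted p = 0.0589), and Ifit2 at 1.10.

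**Figure D3:**
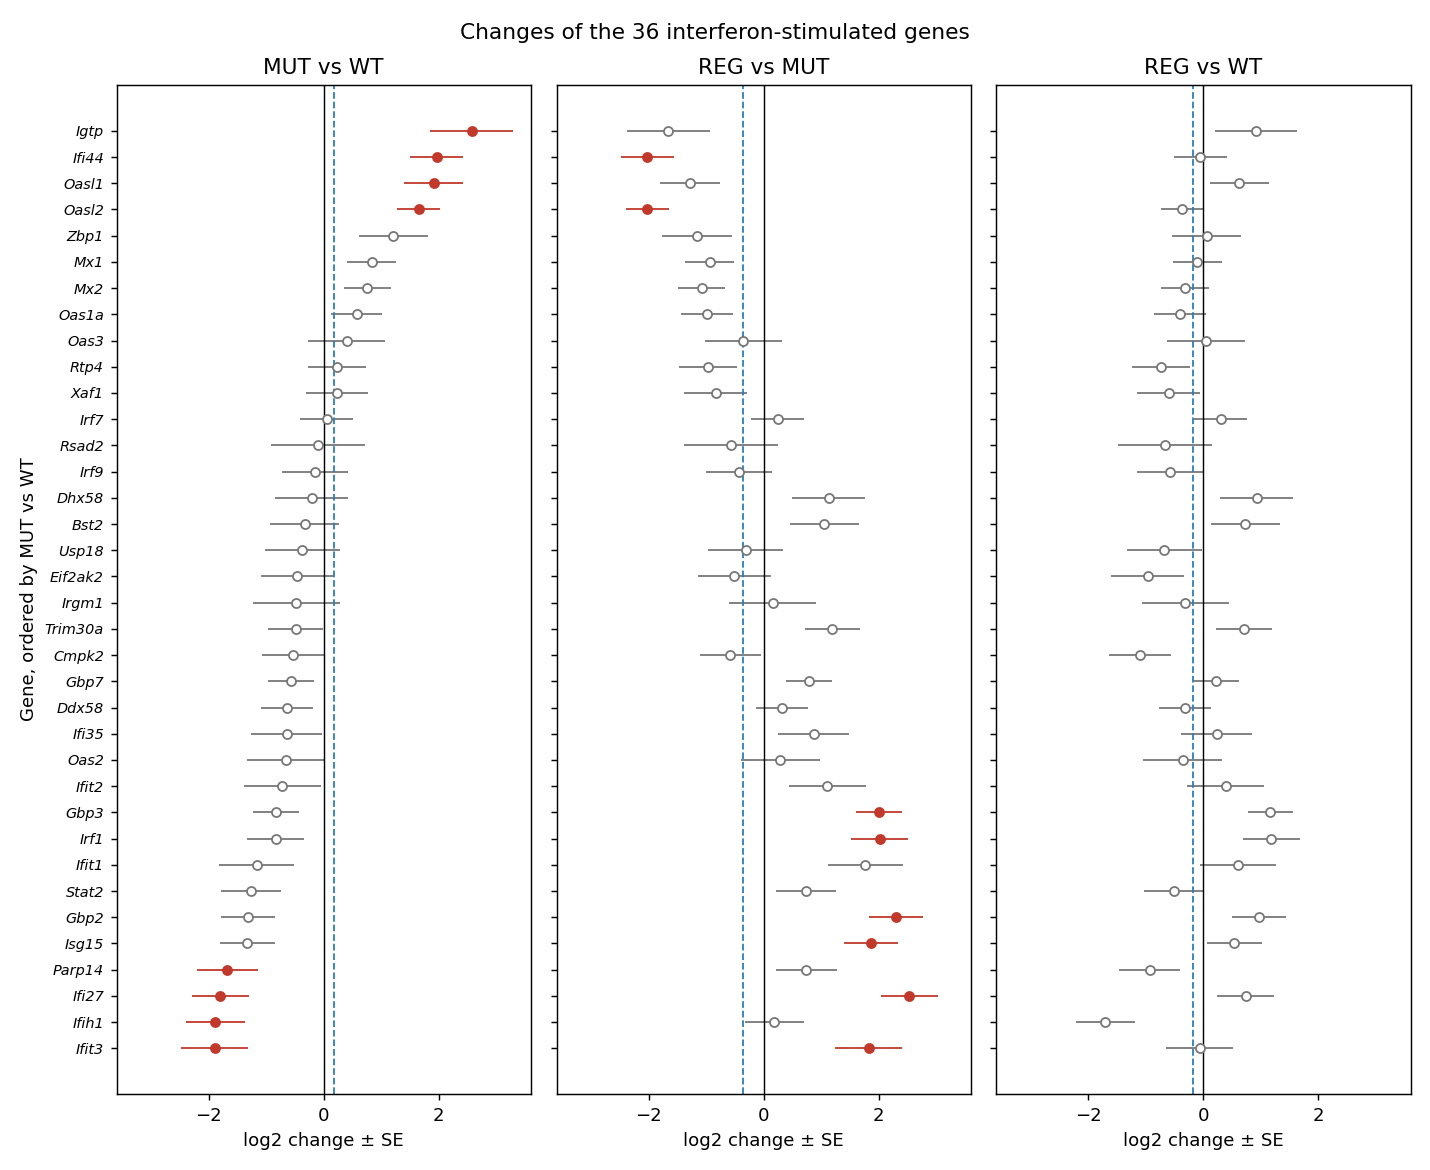
Log2 change and its SE for each of the 36 members in the 3 comparisons, ordered by the change in MUT vs WT. Filled red points passed limma's test at an adjusted p under 0.05, and the dashed line is the median over all genes tested (0.18, -0.36 and -0.18). The first panels each hold 8 filled points and the REG vs WT panel holds none.

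Between REG and WT no member passed the test. At an unadjusted limma p under 0.05 there were 3 of 36 (Irf1 and Gbp3 higher, Ifih1 lower), where 9.47% of all genes tested reached that level, and 0.0% passed after adjustment. The authors' deposited table also had 0 members at an FDR under 0.05 here. Groups did not overlap for Irf1, Dhx58, Gbp3 and Ifi27, which were higher in every REG library (4.03% of all genes), and for Ifih1 and Parp14, which were lower in every REG library (12.1% of all genes). The median log2 change was -0.06 over the members and -0.18 over all genes. Without REG replicate 3, Cmpk2, the mitochondrial nucleotide kinase gene next to Rsad2, was called lower in REG (-1.76, adjusted p = 0.0346).

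The REG libraries differed widely among themselves. The highest REG value was over 4 times the lowest for 20 of 36 members in REG, for 5 in MUT and for 4 in WT, with 56.7%, 24.2% and 14.8% of all genes. REG replicate 2 lay more than 2-fold outside the other REG libraries for 23 members, against 7 for replicate 1 and 6 for replicate 3, with 40.5%, 25.2% and 31.03% of all genes for replicates 2, 1 and 3. Among the effectors, Rsad2, which encodes viperin, was at 4.33, 0.517 and 10.6 in REG, 7.60, 2.40 and 6.44 in MUT, and 6.72, 3.38 and 6.57 in WT. Its groups overlapped fully, at -0.10 in MUT over WT and -0.67 in REG over WT. The other uncalled effectors, Cmpk2, Bst2, Ifi35, Rtp4, Xaf1 and Trim30a, ranged from -0.64 to 0.23 in MUT over WT and from -0.97 to 1.20 in REG over MUT.

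Some members had groups that did not overlap without passing the test, and those below are given because of that pattern. Lack of overlap was common: in MUT vs WT 32.6% of all genes were higher and 25.9% lower in this way. In REG vs MUT these shares were 14.0% and 28.5%. Gbp7 was also lower in every MUT library than in any WT library, at -0.57 (limma adjusted p = 0.296). Zbp1 was at 0.587, 3.87 and 0.707 in REG, 2.48, 5.21 and 2.68 in MUT, and 1.87, 0.607 and 1.42 in WT, higher in every MUT library than in any WT library (limma adjusted p = 0.143). Mx1 was at 0.534, 0.437 and 1.24 in REG, 1.80, 1.34 and 1.85 in MUT, and 0.831, 0.333 and 1.36 in WT. The related Mx2 was at 0.455, 0.694 and 0.907 in REG, 2.06, 1.07 and 2.62 in MUT, and 1.29, 0.516 and 1.12 in WT. Both were lower in every REG library than in any MUT library, by fitted changes of -0.94 and -1.08 (adjusted p = 0.112 and 0.0631). With trimmed-mean or total scaling both passed the test, as higher in MUT than in WT and as lower in REG than in MUT. Neither passed in these comparisons with quantile scaling or with background subtracted, in RPM or with the authors' scaling kept. Over the summed MUT libraries Mx1 was at 1.57 times background, Mx2 at 2.04 and Zbp1 at 2.64. In the summed WT libraries these ratios were 7.34, 8.74 and 11.98. Ifit1 was at 2.19, 14.5 and 1.99 in REG, 0.720, 1.11 and 1.04 in MUT, and 2.41, 1.67 and 4.15 in WT, lowest in MUT throughout. Trim30a, an inhibitor of Toll-like receptor signalling in mouse, was at 9.53, 5.49 and 5.15 in REG, 3.50, 1.29 and 3.78 in MUT, and 6.46, 3.10 and 2.75 in WT. Its REG values were above all MUT values, at 1.20 (adjusted p = 0.0777), and it shares 8.53% of its 31-base words with Trim30d.

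Summed over the members, the order of the groups depended on the scaling. The summed scaled counts were 199, 161 and 164 in REG, 112, 154 and 138 in MUT, and 159, 150 and 171 in WT, with 2 of 3 MUT libraries below every WT library. Scaled to the library total instead (RPM), the sums were 541, 474 and 367 in REG, 628, 512 and 834 in MUT, and 343, 282 and 355 in WT, and every MUT library was above every WT library. These sums follow the few members of highest value and were not tested.

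How far the members stood above background differed between the groups. The median ratio of estimated reads to background reads was 46.9, 27.5 and 52.2 in the REG libraries, 1.90, 2.90 and 2.31 in the MUT libraries, and 25.8, 29.4 and 32.8 in the WT libraries. In MUT, from 13 to 19 of the 36 members lay under 2 times background, against at most 2 in any REG or WT library. Over the summed MUT libraries, Igtp was at 26.05 times background, Oasl2 at 7.34, Oasl1 at 4.24 and Ifi44 at 1.93. In the summed WT libraries the ratio was higher for each of these genes, at 44.5 for Igtp, 24.3 for Oasl2, 8.78 for Oasl1 and 3.23 for Ifi44. Of the other called members, Ifi27 was at 4.10 in MUT, Irf1 at 3.71, Parp14 at 3.17 and Ifih1 at 2.09. Ifit3 was at 1.99, Gbp2 at 1.70, Gbp3 at 1.67 and Isg15 at 0.566.

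What taking that background off did to the calls depended on the scaling used with it. With the authors' scaling, pseudocount and filter kept, an alternative added after seeing the data, 3 members were higher in MUT than in WT (6.47% of all genes) and 9 were lower (26.8% of all genes). Oasl1, Oasl2 and Igtp were higher, at 1.75, 1.53 and 2.55 on the log2 scale (limma, highest adjusted p = 0.0440), and Ifi44 no longer passed, at 1.31 (adjusted p = 0.150). Ifih1, Ifit3, Ifi27 and Parp14 were lower here too, joined by Stat2, Ifit1, Gbp2, Gbp3 and Isg15. In REG over MUT this gave 10 higher members (19.5% of all genes) and Oasl2 as the 1 lower (6.27% of all genes).

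With the subtracted reads scaled to RPM instead, and 1 RPM as pseudocount and filter, Oasl1, Oasl2, Igtp and Ifi44 were called higher in MUT than in WT, at 3.00, 2.99, 3.98 and 2.40 (limma, highest adjusted p = 0.0475), where 13.6% of all genes were. None of the 4 lower members passed, at -1.58 for Ifih1, -1.87 for Ifit3, -0.98 for Ifi27 and -0.70 for Parp14, and 3.46% of all genes did. Total scaling without subtraction also gave 0 lower members. In REG over MUT, Gbp2, Gbp3 and Isg15 were higher (3.31% of all genes) and Oasl1, Oasl2 and Igtp lower (12.5% of all genes), and total and trimmed-mean scaling without subtraction called these 3 lower as well.

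**Figure D4:**
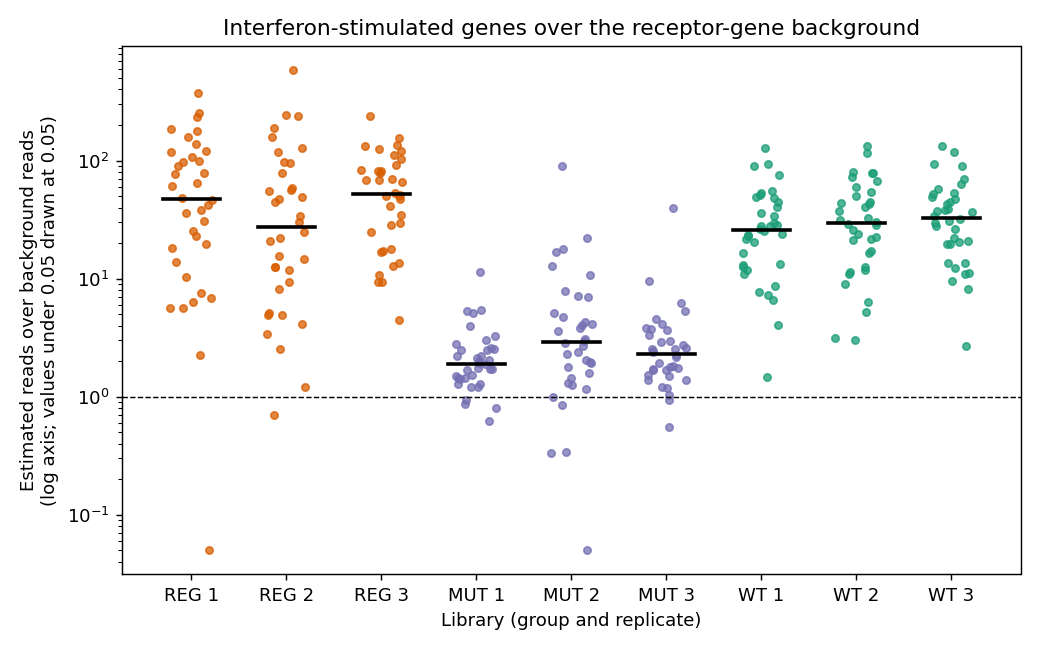
Estimated reads of each member over the background reads for its exon length, by library of REG, MUT and WT, on a log axis. Points are the 36 members, bars the library medians, and the dashed line marks equality. Medians lie between 1.90 and 2.90 in MUT and between 25.8 and 52.2 in REG and WT.

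The choice of scaling moved the direction of the set as a whole. Under trimmed-mean scaling the median over all genes tested, in MUT over WT, moved to 0.60 and that of the members to 0.01, with 6 members called higher (29.4% of all genes) and 0 lower (8.90% of all genes). Under total-read scaling these medians were 1.16 and 0.65, with 9 members called higher (42.9% of all genes) and 0 lower (2.93% of all genes). Relative to all genes the members' median was lower under each scaling, at -0.65 as reported, -0.59 with the trimmed mean, -0.51 with the total and -0.31 with quantile scaling. With background subtracted it was -0.12 in RPM and -0.26 on the deposited scale. With a 10 times stricter filter the order was the other way, at -0.64 over the 19 members left and -0.99 over all genes left. In REG over MUT the split of 6 higher and 2 lower became 5 and 7 with the trimmed mean, where 7.53% of all genes were higher and 32.9% lower, and 4 and 10 with the total, where 3.34% were higher and 42.2% lower. Oasl2, Oasl1, Igtp and Ifi44 were called higher in MUT than in WT under each of the 4 scalings, whereas Ifih1 and Parp14 were called lower only as reported, and Ifi27 and Ifit3 only as reported and with quantile scaling.

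**Figure D5:**
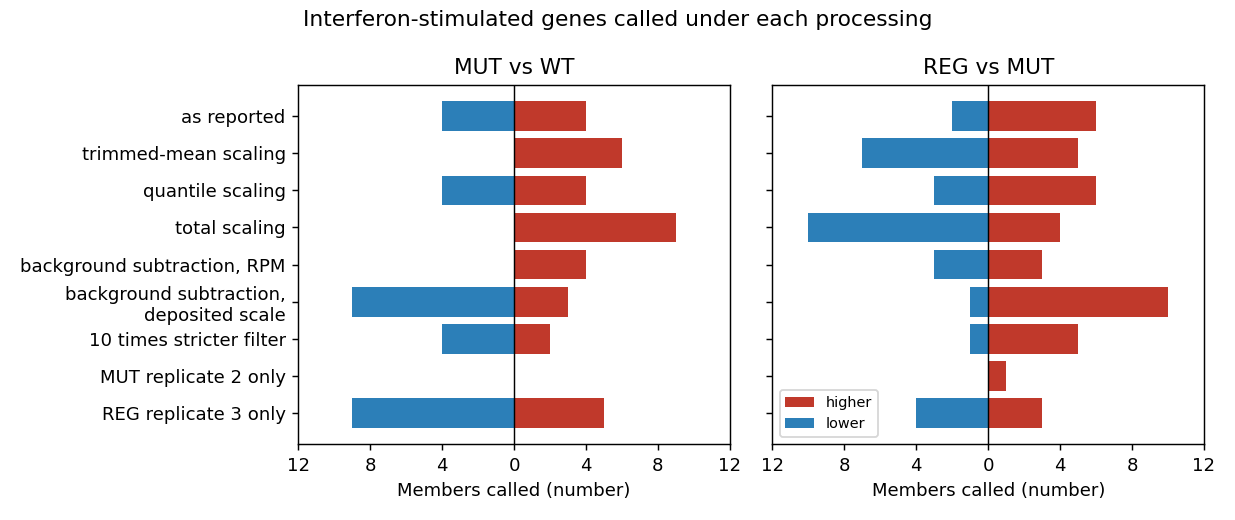
Number of the 36 members called higher (right) and lower (left) in MUT vs WT and in REG vs MUT, as reported and under 8 other ways of processing. The lower calls of MUT vs WT go to 0 with trimmed-mean scaling, total scaling, background subtraction in RPM and MUT replicate 2 as the only MUT library, and to 9 with background subtraction on the deposited scale.

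The rest of the pathway was described with further gene lists. Counts here and in the cell type lists stand beside these shares of all genes called higher and lower. In MUT vs WT they were 20.5% and 14.6% as reported and 29.4% and 8.90% with trimmed-mean scaling. Quantile scaling gave 8.77% and 8.46%, and total scaling 42.9% and 2.93%. In REG vs MUT they were 11.8% and 24.8% as reported and 7.53% and 32.9% with the trimmed mean. Quantile scaling gave 6.27% and 8.09% there, and total scaling 3.34% and 42.2%. Of 21 interferon genes, 16 were in the gene table and 4 passed the filter. Ifnab, a type I interferon gene, was called higher in MUT than in WT at 1.18 (limma adjusted p = 0.0184), on 22, 7 and 23 estimated reads in MUT against 0, 0 and 1 in WT. Those MUT reads were 1.01, 3.58 and 1.66 times the local background, and with quantile scaling or either background subtraction 0 genes of this list were called in MUT vs WT or in REG vs MUT. Ifng, the interferon gamma gene, was at 1.11, 1.21 and 0.126 in REG, 0.564, 0.499 and 1.05 in MUT, and 2.10, 0.427 and 1.74 in WT, with no call in any comparison.

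Of 15 receptor and signalling genes 6 fell and 0 rose in MUT relative to WT, a count of lower genes that was 3 with trimmed-mean scaling, 1 with quantile or total scaling, 0 with background subtraction in RPM and 6 with it on the deposited scale (1 gene, Ifnlr1, was higher with total scaling). Ifngr1, the ligand-binding chain of the interferon gamma receptor, fell to 4.29, 5.43 and 6.71 in MUT, against 30.3, 44.5 and 31.3 in WT, by 2.61 (limma adjusted p = 0.00159). Stat3 fell by 2.41, Ifngr2 by 1.83 and the kinase gene Jak1 by 1.52. In REG over MUT 7 rose and 0 fell (4 rose with trimmed-mean, 2 with quantile or total scaling, 0 with background subtraction in RPM and 7 with it on the deposited scale, and Ifnlr1 was lower with trimmed-mean or total scaling), with Ifngr2 at 2.83, Ifngr1 at 2.17, Stat3 at 1.66 and Jak1 at 1.41.

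Of 21 tested genes of nucleic acid sensing and interferon induction, 1 rose and 4 fell in MUT relative to WT, a split of 2 and 1 with trimmed-mean scaling and 5 and 1 with total scaling. The factor gene Irf3 fell by 2.26, the adaptor gene Myd88 by 1.81 and Traf3 by 1.22, while Rnaseh2b, a subunit of the RNase that removes RNA from DNA, rose by 1.81 (limma adjusted p from 0.00265 to 0.0239). In REG over MUT 5 rose, among them Trex1 at 2.39, and 1 fell, a split of 3 and 4 with trimmed-mean scaling and 1 and 5 with total scaling. Trex1 was at no more than 0.569 times the local background in any MUT library. Of 49 tested other interferon-induced genes, 4 rose and 6 fell in MUT relative to WT, and 10 rose and 4 fell in REG relative to MUT. With total scaling the first split was 13 and 2 (42.9% and 2.93% of all genes) and the second 2 and 7 (3.34% and 42.2%). With background subtraction on the deposited scale the first was 3 and 12 (6.47% and 26.8%) and the second 16 and 2 (19.5% and 6.27%). Ifitm1, one of the membrane proteins that block viral entry, fell in MUT relative to WT by 2.73 and Ifitm2 by 2.47, while Sp110 rose by 1.94 and Ifi213 by 1.73 (adjusted p from 0.00176 to 0.00773). Sp110, Ifit3b and Trim14 were called higher in MUT than in WT under each of the 4 scalings and both background subtractions, Ifi213 under all of these but the subtraction on the deposited scale, and Ifitm1 was called lower under each of them. In REG relative to WT 0 genes of any of these lists passed.

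Some markers of cell types also differed between the groups. Of 10 macrophage markers, 5 fell in MUT relative to WT (3 with trimmed-mean, 2 with quantile and 1 with total scaling, 0 with background subtraction in RPM and 4 with it on the deposited scale) and 6 rose in REG relative to MUT (3 with quantile scaling and 2 with background subtraction in RPM), and their summed value was 631, 810 and 458 in REG, 92.1, 193 and 115 in MUT, and 281, 220 and 170 in WT. In RPM the macrophage sum was 1720, 2389 and 1027 in REG, 517, 653 and 695 in MUT, and 608, 417 and 355 in WT. On that scale MUT replicates 2 and 3 were above every WT library. Cd68, a lysosomal protein of macrophages, was at 27.0, 59.7 and 20.5 in REG, 4.66, 4.89 and 3.58 in MUT, and 9.99, 17.3 and 14.6 in WT, in deposited values. Of 8 B cell markers 2 rose in MUT over WT, Ms4a1 by 2.17 and Pax5 by 5.89 (3 rose with quantile scaling, 6 with total scaling, 4 with background subtraction in RPM and 1 with it on the deposited scale). Pax5 and Ebf1 fell in REG relative to MUT. The summed B cell value was 68.1 to 116 in REG, 329 to 1762 in MUT and 38.0 to 81.3 in WT, most of it Pax5 in MUT. Of 6 tested markers of plasmacytoid dendritic cells, which make type I interferon, Ccr9 rose in MUT over WT by 2.18 (no call with background subtraction on the deposited scale), and Siglech was at 0.66 without passing. Of 8 T and NK cell markers Cd3g rose in MUT over WT, with 3 rising under trimmed-mean and 4 under total scaling, and of the neutrophil markers none passed there, while Elane rose in REG over MUT. Of 8 endothelial markers Pecam1 and Cdh5 fell in MUT relative to WT, and Pecam1, Emcn and Egfl7 rose in REG relative to MUT (0 in both with quantile scaling, total scaling and background subtraction in RPM, 1 in each with trimmed-mean scaling, and 4 in each with background subtraction on the deposited scale). Their summed deposited value was 63.7 to 110.4 in REG, 32.4 to 61.1 in MUT and 80.5 to 107.3 in WT. In RPM the endothelial sum was 173 to 267 in REG, 107 to 369 in MUT and 174 to 203 in WT. The part of cell composition, of depth and of background in the changes of the interferon-stimulated genes beyond the measurements above was not tested.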

How the data were processed

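The 9 coronal suture libraries, 3 per group, were single-end with 75 cycles, from RNA of integrity number over 9 per the labels' protocols. The submitters' processing notes name STAR 2.6.1d, Partek and the mm10 genome. How reads were counted and scaled, and with which annotation, is not given in the sources used here. A signal per gene and library fills the deposited matrix, which from its values is a gene count plus 1 scaled to a common upper quartile, and not whole reads. A second deposited table holds, by gene, the FDR of the authors (an adjusted p-value), a log2 ratio per comparison, and summary statistics of other kinds. The matrix columns carry no gene names, so they were joined to that table by 4 statistics, which matched for all 43644 genes within 1e-05 and were unique for 43484. Estimated reads were obtained by dividing each value by the lowest of its library and subtracting 1.

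A single limma 3.58.1 fit (R 4.3.3) of log2(value + 0.367) over all libraries gave the 3 comparisons, with moderated variances and no mean trend. It took in the 29113 genes that reached 0.367 in 3 or more libraries. A fold change on this scale understates that of low genes. P-values are two-sided and adjusted by Benjamini-Hochberg over all genes tested, with calls at an adjusted p under 0.05. The design allowed for whole counts, and the log-scale fit was used because the values are not whole. Exon lengths and overlaps came from GENCODE M21 (GRCm38), and shared sequence was measured as 31-base words of its transcripts. The background density was the median reads per kb of 1747 olfactory and vomeronasal receptor genes.

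The members and gene lists were chosen with earlier results of these data known. Values are printed for called members and for the highest member of each role. Of the other lists the genes of smallest p are named, at most 4 per list and comparison. Genes outside this rule (Zbp1, Mx1, Mx2, Ifit1, Trim30a, Cmpk2, Rsad2, Ifng, Elane, Ifnlr1, Ms4a1, Pax5, Ebf1, Pecam1, Cdh5, Emcn, Egfl7, Cd68, Siglech, Ccr9 and Cd3g, and the partners of overlapping genes) were picked after their values were seen. There were 22 distinct alternatives per comparison, covering scaling, filter, pseudocount, model, libraries left out and background subtraction in RPM (1 RPM as pseudocount and filter). Subtraction on the deposited scale was added after seeing the data. The fit was tested on simulated data. Other work used Python 3.11.15 with pandas 2.3.3, numpy 2.4.6 and matplotlib 3.10.9.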

Additional observations from a re-analysis of the deposited data

How the results depend on the processing

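Oasl2 and Gbp3 were the most stable calls. Oasl2 kept its call in 20 of 22 distinct alternative settings for MUT vs WT and in 21 of 22 for REG vs MUT, and Gbp3 in 21 of 22 for REG vs MUT. No called member changed sign in these settings. Summed with Ifit3b, Ifit3 changed sign to 0.61 in MUT vs WT and to -0.28 in REG vs MUT.

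In MUT vs WT the members called were 14 (9 lower) when only the 2 groups compared or only REG replicate 3 with WT and MUT entered the fit, where 48.7% and 50.1% of all genes were called. With MUT replicate 2 as the only MUT library they were 0 (0 higher, 0 lower), and 7.77% of all genes were called. With background subtraction in RPM 4 were called, 0 of them lower, and the members' median was 0.15, and with it on the deposited scale 9 were lower and the median was -1.15. The 10 times stricter filter left 19 members, 2 called higher (7.94% of all genes), with a median of -0.64, against -0.99 over all genes, and the pseudocount times 10 gave 2 lower (13.8% of all genes) and a median of -0.23. Total scaling gave 9 higher, 0 lower and a median of 0.65, and trimmed-mean scaling 0 lower and a median of 0.00797. In REG vs MUT, MUT replicate 2 alone gave 1 call (1 higher, 0 lower), with 6.54% of all genes called. REG replicate 3 alone gave 3 higher (14.6% of all genes), 4 lower (19.3% of all genes) and a median of 0.65. REG replicates 1 and 2 alone, the same fit as without REG replicate 3, gave 4 lower (25.1% of all genes). The stricter filter gave 1 lower (7.60% of all genes) and a median of 0.74. Background subtraction gave 3 higher in RPM, and 10 higher, 1 lower and a median of 1.15 on the deposited scale. Total scaling gave 14 called, 10 lower and a median of -0.62, and trimmed-mean scaling 7 lower and a median of -0.18. In REG vs WT only REG replicates 1 and 2 alone gave a call, 1 lower (4.18% of all genes). The cause of these shifts was not tested.

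Leaving out each library in turn gave 1 to 13 calls in MUT vs WT (1 to 5 higher, 0 to 8 lower). The fewest came without WT replicate 2, where 15.8% of all genes were called, and the most without REG replicate 2, where 44.4% were. In REG vs MUT leaving out each library gave 5 to 14 calls (3 to 10 higher, 1 to 4 lower) with a median from -0.054 to 0.52. The fewest came without MUT replicate 1 (15.5% of all genes called) and the most without REG replicate 2 (40.8%). In REG vs WT there was 0 to 1 call, 0 to 1 of them lower. No label names an animal or a batch for a replicate number, but the library names in the sample descriptions end in serial numbers. The serial numbers of REG replicates 1 and 2 recur in WT, while that of REG replicate 3 occurs once. The fits with REG replicates 1 and 2 alone and with REG replicate 3 alone follow this split. Whether it marks separate batches is not stated and was not tested. The 3 pairs of the protocol are not explained, and deviations of libraries with the same replicate number correlated between -0.20 and 0.10. With the replicate block the members called were again 4 higher and 4 lower in MUT vs WT, where 17.2% and 12.9% of all genes were. In REG vs MUT they were again 6 higher and 2 lower (10.4% and 21.8% of all genes), and in REG vs WT 0. Low depth in MUT, and in MUT replicate 2 above all, limits values near the background there.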
